A study of Mus musculus with 4 samples.

Results

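Genes of 10 chemokines, secreted proteins with which pancreatic cancer cells attract leukocytes, were followed in mouse pancreatic cancer cells given halofuginone or vehicle. The genes were Cxcl1, Cxcl2, Cxcl5, Cxcl10, Cxcl12, Cxcl15, Cxcl16, Ccl2, Ccl5 and Ccl20. Every array probe that carries one of these names was taken, which gave 13 probes for 10 genes, of 36918 named genes on the array. The 2 treated samples were K5 and K6 cells exposed to halofuginone at 100 nM for 24 hours, and the 2 control samples were K5 and K6 cells exposed to DMSO, with 1 array for each line and condition. Halofuginone is a small molecule that blocks prolyl-tRNA synthetase, part of the Eprs protein. Per the labels, all cells are from pancreatic cancer in C57BL/6 mice. The origin of the 2 lines and whether the samples were separate cultures are not given in the sources used here. A p-value therefore concerns these 4 arrays alone. With the line as a block, its error comes from how far the changes in K5 and K6 disagree, moderated by the same disagreement in other genes.

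Chemokines are small secreted proteins that bind G protein-coupled receptors and steer white blood cells along their gradients. CXC chemokines with the ELR motif, among them Cxcl1, Cxcl2, Cxcl5 and Cxcl15, act on CXCR2 and recruit neutrophils. Cxcl10 recruits T cells through CXCR3, Cxcl12 acts on CXCR4, Cxcl16 on CXCR6, Ccl2 on CCR2 and Ccl20 on CCR6, while Ccl5 is shared among several CC receptors. Many of these genes are induced by inflammatory cytokines through NF-kappaB, and their transcripts often carry AU-rich elements that shorten their life. In pancreatic tumours, CXCR2 ligands and Ccl2 are known for drawing neutrophils and monocytes into the tissue.

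Signal cleared background well at 53.1% of spots in K5 and 54.0% in K6 with halofuginone, against 47.2% in K5 and 48.6% in K6 controls. Signals below, and their sums, are the scanner's processed signals in intensity units and are not scaled between arrays. Levels and fold changes are log2 signals relative to the 75th percentile of their own array. That percentile was 884 in K5 and 828 in K6 with halofuginone, against 692 in K5 and 890 in K6 controls. The error that the scanner software assigns to a spot, carried over to a change between 2 bright spots of a probe, was about 0.20 on the log2 scale, and repeated spots of 1 probe varied by a median of 2.37% to 3.28% within an array. The epithelial keratins were bright on every array, with Krt19, a keratin of duct cells, at 127316 and 105229 in the halofuginone samples of K5 and K6, against 130240 and 59351 in their controls. Of 9 fibroblast markers 4 were tested, and 3, among them Lum, were well above background on no array, with Col1a1 on 1. By array, 4 of the 9 were well above background in K5 and 2 in K6 after halofuginone, against 3 in each control. The summed signal of all 9 was 10424 in K5 and 7739 in K6 after halofuginone, against 12393 in K5 and 14274 in K6 controls. After scaling, the median change of the 4 tested was -0.35 in K5 and -0.51 in K6 on the log2 scale. Immune markers, also partly bright, are given further on.

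Of the 10 chemokines, 8 cleared background on 2 or more arrays with their brightest probe and entered the fit across 19092 genes, in which limma compared halofuginone with control with the line as a block. Cxcl5 alone passed the adjusted p threshold of 0.05, and it fell. This was 1 of 8 members lower, where 5.08% of all tested genes were called lower, and 0 of 8 higher, where 3.88% were called higher. Cxcl1, Cxcl5, Ccl2 and Ccl20 were each at least 2-fold lower in both lines, 4 of 8 members, against 9.52% of all tested genes. No member was at least 2-fold higher in both lines, where 6.92% of tested genes were. The median change of the 8 members was -1.13 on the log2 scale, with -1.19 in K5 and -1.61 in K6, beside 0.01, -0.03 and 0.04 over all tested genes. At an unadjusted p under 0.05 in limma, 4 of 8 members were lower and 0 higher, beside 16.9% and 17.2% of all tested genes. These are bulk samples, in which fewer cells that make a transcript and less transcript per cell cannot be told apart.

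**Figure D1:**
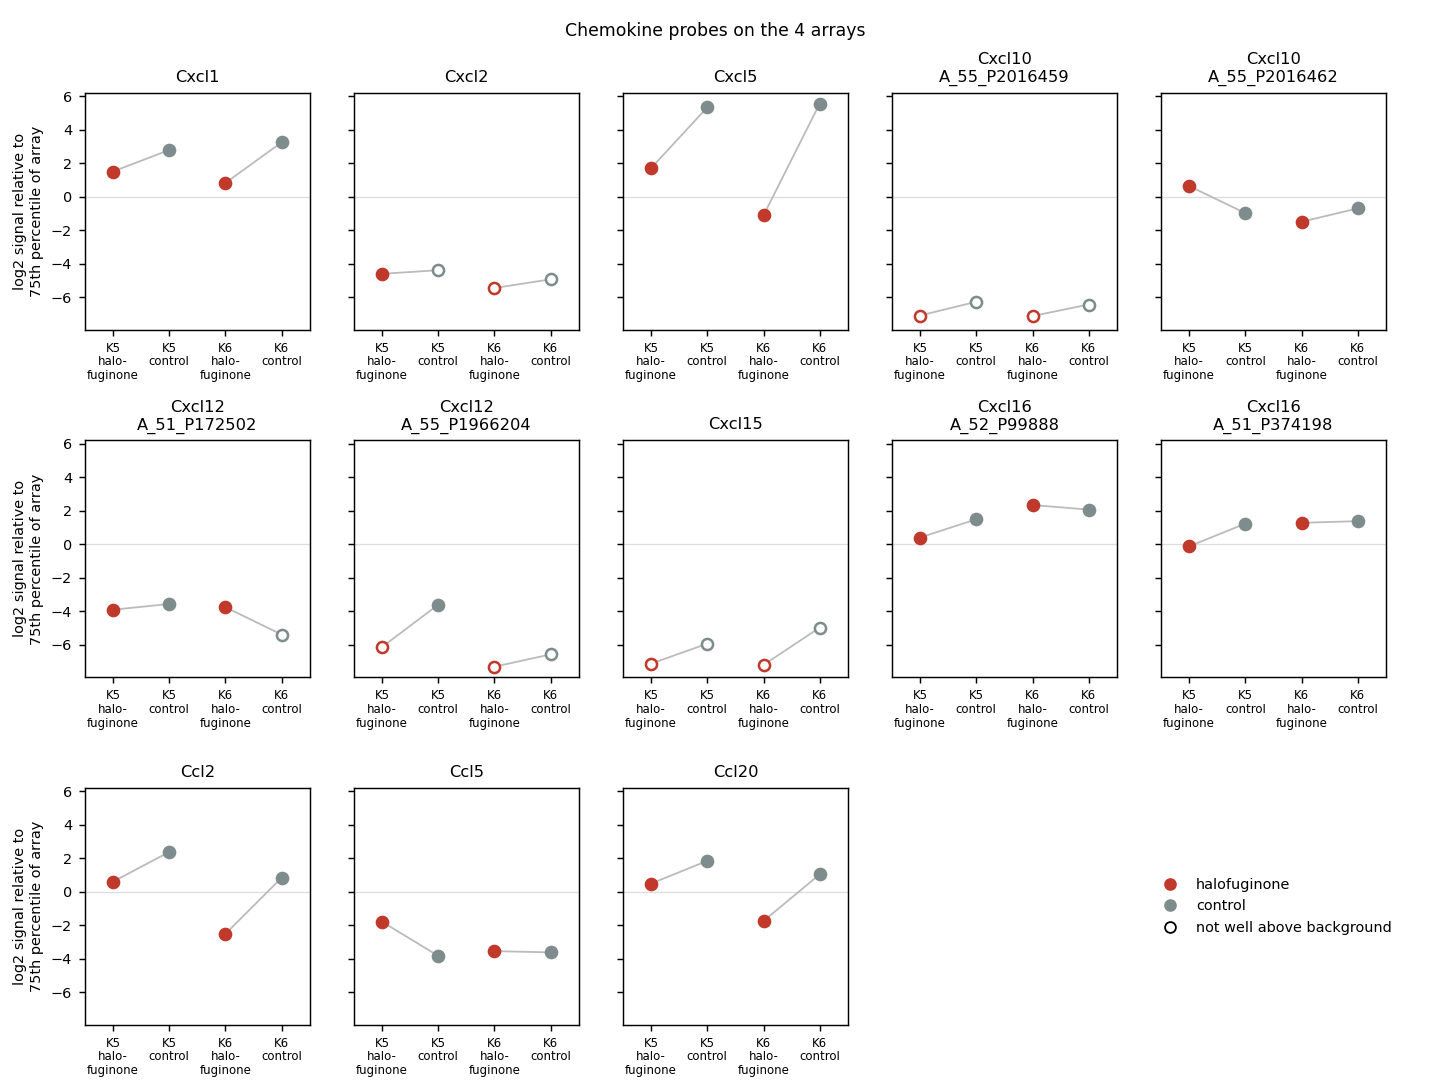
Level of each of the 13 chemokine probes on the 4 arrays, as log2 signal relative to the array's 75th percentile (vertical axis), with halofuginone left of control in each line. Open points are not well above background, and Cxcl1, Cxcl5, Ccl2 and Ccl20 have both halofuginone points below both control points.

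Among the neutrophil-attracting CXC chemokines, Cxcl5, known in mouse as LIX, had the steepest drop of the 8 tested members. Its signal was 2890 in K5 and 385 in K6 after halofuginone, against 28081 in K5 and 42307 in K6 controls. Both control arrays were far above both halofuginone arrays, and the halofuginone array of K6 was the lowest of the 4. The change was 12.4-fold lower in K5 and 102-fold lower in K6. In the limma fit Cxcl5 averaged a level of 0.30 ± 1.99 with halofuginone and 5.46 ± 0.16 in control (SD, n = 2 each), a log2 change of -5.15 with an SE of 0.81 and an adjusted p of 0.047. That is 35.6-fold lower, with a 95% interval for the log2 change of -7.40 to -2.91. Only 0.173% of tested genes had a lower estimate. The call ended in 6 of 11 alternative ways of processing the 4 arrays, where the limma adjusted p reached 0.126. The estimate lay between -5.28 and -5.06, but some of these ways, such as leaving out the block, cannot move it.

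Cxcl1, also known as KC, is another CXCR2 ligand and was bright on all 4 arrays. Its signal was 2521 in K5 and 1471 in K6 after halofuginone, against 4808 in K5 and 8514 in K6 controls. Both halofuginone arrays lay below both controls, and the gap was wider in K6. The change was 2.43-fold lower in K5 and 5.38-fold lower in K6. The limma estimate was -1.86 with an SE of 0.38 and an adjusted p of 0.062, which misses the threshold, and its 95% interval ran from -2.93 to -0.79.

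Cxcl2, or MIP-2, and Cxcl15, a lung chemokine also called lungkine, were at the floor of the assay. Cxcl2 read 36.6 in K5 and 19.1 in K6 after halofuginone, against 33.4 in K5 and 29.4 in K6 controls, and only the halofuginone array of K5 was well above background. Cxcl15 read 6.37 in K5 and 5.65 in K6 after halofuginone, against 11.4 in K5 and 28.5 in K6 controls, with none of these well above background. Neither gene entered the fit, so no change can be given for them at this signal.

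The CC chemokine Ccl2, or MCP-1, which attracts monocytes, had a signal of 1351 in K5 and 146 in K6 after halofuginone, against 3616 in K5 and 1605 in K6 controls. Both halofuginone arrays were lower than both controls, and the halofuginone array of K6 stood lowest. The change was 3.42-fold lower in K5 and 10.2-fold lower in K6. In limma the log2 change was -2.56 with an SE of 0.47, 5.91-fold lower, and the adjusted p of 0.054 lay just outside the threshold. The 95% interval was -3.88 to -1.25. In 5 of 11 alternative settings Ccl2 did pass, with limma adjusted p-values over these settings between 0.009 and 0.285. With 1 array left out and no block, the estimate ranged between -4.12 (without the K5 halofuginone array) and -1.01 (without that of K6).

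Ccl20, the ligand of CCR6 on Th17 cells and dendritic cells, gave a similar order of arrays. Its signal was 1247 in K5 and 249 in K6 after halofuginone, against 2502 in K5 and 1840 in K6 controls. The groups did not overlap, and the K6 halofuginone array was again the lowest. The change was 2.56-fold lower in K5 and 6.88-fold lower in K6, and the limma estimate was -2.07 (SE 0.44, adjusted p = 0.065), 4.20-fold lower, with a 95% interval of -3.29 to -0.84. It was -3.19 without the K5 halofuginone array and -0.95 without that of K6. For 4 of 8 members both halofuginone arrays lay below both control arrays, as they did for 28.6% of all tested genes.

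**Figure D2:**
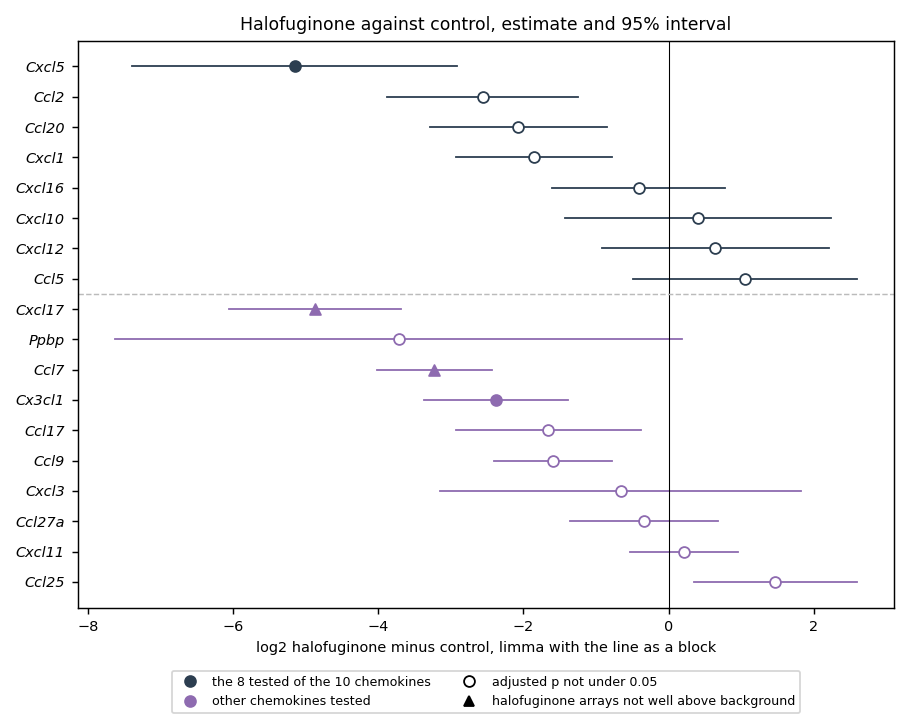
Halofuginone minus control in the limma fit with the line as a block, on the log2 scale (horizontal axis), with 95% intervals, for the 8 tested of the 10 chemokines (dark, above the dashed line) and 10 other chemokines (purple). Filled symbols have an adjusted p under 0.05, triangles (Cxcl17 and Ccl7) entered through their control arrays alone and are drawn as read, and Cxcl5 at -5.15 is the only filled symbol among the dark points.

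Cxcl10, or IP-10, an interferon-induced ligand of CXCR3, took opposite signs in the 2 lines. Its bright probe read 1384 in K5 and 296 in K6 after halofuginone, against 353 in K5 and 552 in K6 controls. The K5 halofuginone array was the highest of the 4 and the K6 halofuginone array the lowest, so the groups overlapped. In K5 the change was 3.07-fold higher and in K6 it was 1.74-fold lower. The limma estimate over both lines was 0.41 with an SE of 0.66 and an adjusted p of 0.69. The other Cxcl10 probe, 775 bases nearer the start of the gene, was well above background on 0 of the 4 arrays.

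Ccl5, or RANTES, which attracts T cells and monocytes, was higher with halofuginone in K5 and nearly equal in K6. Its signal was 257 in K5 and 71.5 in K6 after halofuginone, against 49.2 in K5 and 72.9 in K6 controls. The halofuginone array of K5 stood apart and the other 3 were close to each other. The change was 4.10-fold higher in K5 and 1.05-fold higher in K6 after scaling. On the scaled levels both halofuginone arrays were above both controls, as for 30% of tested genes, but the limma estimate of 1.06 with an SE of 0.55 had an adjusted p of 0.26.

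Cxcl16, which exists as a membrane-bound chemokine and as a shed form, was bright on all 4 arrays. Its brighter probe read 1173 in K5 and 4218 in K6 after halofuginone, against 1961 in K5 and 3751 in K6 controls. Both K6 arrays were above both K5 arrays, and halofuginone and control overlapped. The change was 2.13-fold lower in K5 and 1.21-fold higher in K6. The limma estimate was -0.41 with an SE of 0.43 and an adjusted p of 0.54. A further Cxcl16 probe read 814 in K5 and 2021 in K6 after halofuginone, against 1635 in K5 and 2327 in K6 controls. There the change was -1.36 in K5 and -0.10 in K6 on the log2 scale, so the probes shared a direction in K5 and differed in sign in K6.

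Cxcl12, or SDF-1, usually a product of stromal cells, was close to background. Its brighter probe read 59.2 in K5 and 61.6 in K6 after halofuginone, against 58.9 in K5 and 21.3 in K6 controls, and the control array of K6 was not well above background. In K5 the log2 change after scaling was -0.34, and in K6 the level was at least 1.42-fold higher with halofuginone. In limma the estimate was 0.65 with an SE of 0.56 and an adjusted p of 0.46. The Cxcl12 probe for another transcript read 12.6 in K5 and 5.25 in K6 after halofuginone, against 57.2 in K5 and 9.40 in K6 controls. Only the K5 control was well above background there, so this probe was at least 2.51-fold lower with halofuginone in K5 and gave no change in K6. The 2 probes of Cxcl12 therefore did not read the same change.

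**Figure D3:**
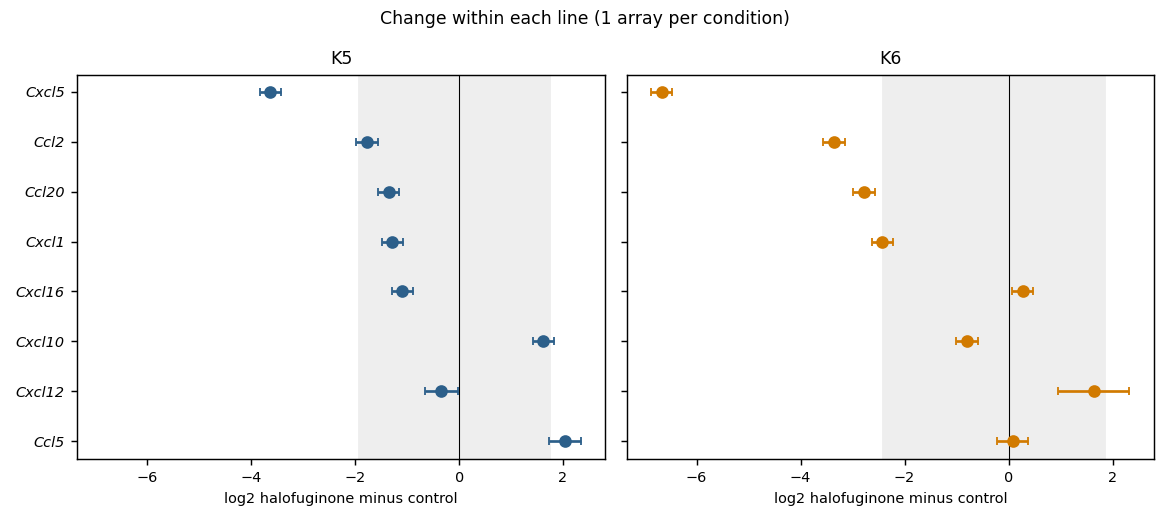
Change with halofuginone within each line on the log2 scale (horizontal axis) for the 8 tested chemokines, K5 left and K6 right, 1 array per condition. Bars are the error of the spots given by the scanner software, not replicate error, the grey band spans the 5th to 95th percentile of all tested genes, the K6 value of Cxcl12 is as read (control not well above background), and Cxcl5 lies outside the band in both lines, at -3.63 in K5 and -6.67 in K6.

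In K5, 5 members were at least 2-fold lower (Cxcl1, Cxcl5, Cxcl16, Ccl2 and Ccl20), against 14.8% of all tested genes, and 2 were at least 2-fold higher (Cxcl10 and Ccl5), against 11.2%. In K6, 4 members were at least 2-fold lower and 0 higher, while 16.3% of tested genes were lower and 14.5% higher. In these counts a side not well above background enters by its bound, as for Cxcl12 in K6. The lines took opposite signs for 3 of 8 members (Cxcl10, Cxcl12 and Cxcl16), against 23.3% of tested genes. With 1 array per line and condition there is no test of how far the lines differ in their response.

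All 4 chemokines that were lower in both lines had the larger drop in K6. Drops also reached further in K6 over all tested genes, whose 5th percentile was -2.41 in K6 and -1.92 in K5. The share of genes lower in both lines that fell further in K6 was not counted. Taken as the K6 change less the K5 change, the gap for Cxcl5 was -3.04 on the log2 scale, and 1.77% of tested genes had a gap at least as large in either direction. It was -1.58 for Ccl2, a size met or passed by 8.06% of tested genes, -1.15 for Cxcl1, met or passed by 15.3%, and -1.43 for Ccl20. For Cxcl10 it was -2.42 and for Ccl5 -1.96, with 2.97% and 5.10% of tested genes at least as far apart. Cxcl16 went the other way, with 1.37, and for Cxcl12 no exact gap is given because its K6 control was not well above background. These gaps are single values without replicates, and the shares use levels as read.

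Sequences of members were compared at their promoters and in the stretch of transcript that was measured. Whether they bear on the changes was not tested. The reference table of promoters from RefSeq (GRCm38.p6) held Ccl20, Cxcl1, Cxcl2, Cxcl10, Cxcl12 and Cxcl15, 6 of the 10 members. A kappaB motif, the binding site of NF-kappaB, was searched on both strands in the 250 bases before each start. It was found in Cxcl1, Cxcl2, Cxcl10 and Ccl20, 4 of 6 members, and in 3.90% of all 32851 promoters in the table. Windows of 100 bases around these matches, 5′ to 3′ on the strand of the gene with the matched bases in capitals, are as follows, Cxcl1 at chr5:90891129-90891228 (plus strand), Cxcl2 at chr5:90903757-90903856 (plus), Ccl20 at chr1:83116640-83116739 (plus) and Cxcl10 at chr5:92348967-92349066 (minus).
Cxcl1: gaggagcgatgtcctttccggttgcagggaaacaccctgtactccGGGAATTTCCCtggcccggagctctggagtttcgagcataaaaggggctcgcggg
Cxcl2: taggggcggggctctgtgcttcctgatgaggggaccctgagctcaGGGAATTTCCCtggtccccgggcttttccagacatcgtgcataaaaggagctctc
Ccl20: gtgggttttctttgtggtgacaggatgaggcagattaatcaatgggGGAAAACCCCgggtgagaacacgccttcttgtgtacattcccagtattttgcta
Cxcl10: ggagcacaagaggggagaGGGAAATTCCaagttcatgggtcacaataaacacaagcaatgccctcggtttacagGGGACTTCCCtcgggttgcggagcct

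Cxcl1 and Cxcl2, next to each other on the chromosome, held the same 11 bases, which are 2 overlapping matches and begin 71 and 97 bases before their starts. The match in Ccl20 began 80 bases before its start. Cxcl10 had 2 separate matches, at 159 and 103 bases, and was the only one of the 6 with the interferon response motif (GAAA, any 2 bases, GAAA), which 2.98% of promoters held, and with the AP-1 motif TGANTCA, held by 6.75%. The CHOP-ATF4 motif TGATGNAA of amino acid response genes matched 0 of 6 member promoters and 3.45% of all. The motif TATAAA matched Cxcl15 alone, and 12.4% of all promoters. The kappaB match was thus shared by Cxcl1 and Ccl20, which read lower in both lines, by Cxcl10, which did not, and by Cxcl2, which was near background. Cxcl5 and Ccl2, also lower in both lines, could not be searched, as the reference held no promoter for them. A match describes letters only.

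Probes of 60 bases measured each transcript, and ATTTA, the core of AU-rich elements, was searched on the transcript strand. It occurred in 4 of 13 member probes, those of Cxcl2, Cxcl5, Ccl20 and the second Cxcl12 probe, and in 8.08% of all 56605 probes. For the 4 members lower in both lines, 30 bases of the probe are shown with ATTTA in capitals where present, on mm9, Cxcl5 at chr5:91190490-91190519 (plus strand), Ccl20 at chr1:83115514-83115543 (plus), Cxcl1 at chr5:91322080-91322109 (plus) and Ccl2 at chr11:81850650-81850679 (plus).
Cxcl5: gctgagatATTTAgatgtctgtagtgtgtc
Ccl20: ctatgtttagctATTTAatgttaatttccc
Cxcl1: cgctcgggacagagacgttcaaaggactgt
Ccl2: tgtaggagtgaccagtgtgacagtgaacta

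The probes of Cxcl5 and Ccl20 held the motif and those of Cxcl1 and Ccl2 did not, and a 60-base probe covers only a small stretch of its transcript.

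Between the lines, 0 of 8 members passed in limma for K6 against K5, where 0.0576% of tested genes were called higher in K6 and 0.115% lower. At an unadjusted p under 0.05 in limma, Cxcl16 was higher and Ccl2 and Ccl20 were lower in K6, 1 and 2 of 8 members, beside 7.64% and 7.90% of all tested genes. Ccl2 was 8.66-fold lower in K6 than in K5 with halofuginone and 2.90-fold lower in control, and its limma estimate for K6 minus K5 was -2.32 with an SE of 0.47 and an adjusted p of 0.17. Ccl20 was 4.70-fold lower in K6 with halofuginone and 1.75-fold lower in control, with a limma estimate of -1.52 and an adjusted p of 0.26. Cxcl16 was 3.84-fold higher in K6 with halofuginone and 1.49-fold higher in control, with a limma estimate of 1.26 and an adjusted p of 0.31.

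For the other members the difference between lines, as read, had opposite signs with halofuginone and in control, which was not tested. How many of all tested genes did the same was not counted. Cxcl5 was 7.03-fold lower in K6 than in K5 with halofuginone and 1.17-fold higher in control. Cxcl10 was 4.38-fold lower in K6 with halofuginone and 1.22-fold higher in control. Ccl5 was 3.37-fold lower in K6 with halofuginone and 1.15-fold higher in control. Cxcl1 was 1.61-fold lower in K6 with halofuginone and 1.38-fold higher in control. The log2 difference in control was 0.21 for Ccl5, within its spot error of 0.36. It was 0.23 for Cxcl5 and 0.28 for Cxcl10, close to their spot errors of 0.20 and 0.21, and 0.46 for Cxcl1, with 0.20. The signs in control for Ccl5, Cxcl5 and Cxcl10 are therefore uncertain. In the control arrays the lines differed by less than 2-fold for 6 of the 7 members that were well above background there, and by more for Ccl2. The share of all tested genes within 2-fold there was not counted, so this describes the members only. Cxcl12 was at least 1.62-fold lower in K6 than in K5 in control and 1.11-fold higher with halofuginone.

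**Figure D4:**
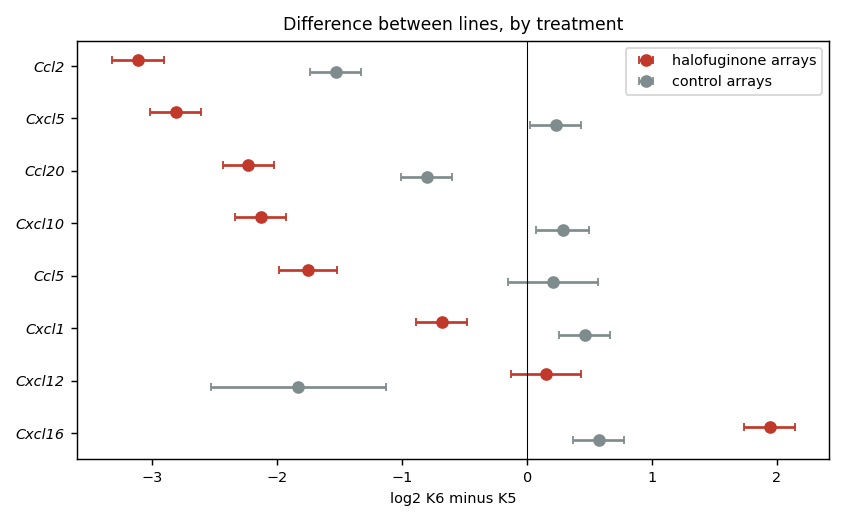
Difference between lines, K6 minus K5, on the log2 scale (horizontal axis), for the 8 tested chemokines, with the halofuginone arrays in red above the control arrays in grey, 1 array each. Bars are the error of the spots, the K6 control of Cxcl12 is not well above background, and Cxcl5, Cxcl10, Ccl5 and Cxcl1 lie left of 0 with halofuginone and right of it in control. The control bar of Ccl5 crosses 0.

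The ELR chemokines, with Pf4, which lacks that motif, lie in 1 cluster on chromosome 5 (mm9), in the order Cxcl5, Ppbp, Pf4, Cxcl3, Cxcl15, Cxcl1 and Cxcl2. Cxcl3, a CXCR2 ligand between them, read 687 in K5 and 245 in K6 after halofuginone, against 260 in K5 and 1354 in K6 controls, so it was 2.07-fold higher in K5 and 5.14-fold lower in K6. Ppbp, the neighbour of Cxcl5 and a platelet chemokine, read 33.0 in K5 and 7.74 in K6 after halofuginone, against 50.6 in K5 and 738 in K6 controls. It was 1.96-fold lower in K5 and at least 26.7-fold lower in K6, and its limma adjusted p was 0.16. Pf4, Cxcl15 and Cxcl2 were well above background on 0, 0 and 1 of the 4 arrays. Neighbouring genes of the cluster therefore did not all read the same change, and Cxcl3 took opposite signs in the lines where Cxcl5 and Cxcl1 were lower in both.

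On chromosome 11 (mm9), Ccl7, another monocyte attractant, lies next to Ccl2. It read 25.1 in K5 and 6.13 in K6 after halofuginone, neither well above background, against 154 in K5 and 73.8 in K6 controls. Ccl7 was at least 4.25-fold lower over both lines, and at least 6.76-fold in K5 and 2.67-fold in K6. It entered the fit through its control arrays alone. On chromosome 5 the probes of Cxcl9 and Cxcl11, the other interferon-induced CXCR3 ligands, lie on either side of that of Cxcl10. The brighter Cxcl11 probe read 208932 in K5 and 204118 in K6 after halofuginone, against 126640 in K5 and 212208 in K6 controls. Its limma estimate was 0.21 with an adjusted p of 0.61. Another probe of Cxcl11 read only 3706 in K5 and 3479 in K6 after halofuginone, against 1663 in K5 and 3531 in K6 controls. The level of Cxcl11 therefore depends on the probe, and the cause was not tested. Cxcl9 was well above background on 0 of the 4 arrays.

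Of 29 further chemokines listed, 28 were on the array and 10 were tested. In limma 3 were called lower and 0 higher, and 7 did not pass. Of the 3, Ccl7 and Cxcl17 entered the fit only through their control arrays, so their calls are no support for a drop beyond the bound. Cxcl17, a mucosal chemokine, read 27.6 in K5 and 5.53 in K6 after halofuginone, not well above background, against 395 in K5 and 278 in K6 controls, so it was at least 13.2-fold lower. Cx3cl1, or fractalkine, read 1572 in K5 and 545 in K6 after halofuginone, against 4563 in K5 and 4289 in K6 controls. Its log2 change was -2.38 with an SE of 0.35 and a limma adjusted p of 0.045. Ccl9 had a limma estimate of -1.60 with an adjusted p of 0.054, and Ccl17 one of -1.66 with 0.097. The estimate for Ccl27a was -0.34 and that for Ccl25, a thymic and gut chemokine, 1.47 with a limma adjusted p of 0.096.

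Receptors for these chemokines mostly read near background. Of 22 on the array, 16 were well above background on no array, among them Cxcr4 and Ccr6, while Cxcr2 and Ccr2 were on 1 array each. Ackr3, the scavenging receptor of Cxcl12, was bright, at 6322 in K5 and 1981 in K6 after halofuginone, against 2713 in K5 and 2854 in K6 controls. The groups overlapped, and its limma estimate was 0.22 with an adjusted p of 0.73. None of the 3 tested receptors passed.

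Of 42 tested genes in 3 lists of regulators of chemokine transcription, inhibitors included, 3 passed in limma for halofuginone. That was 7.14%, beside 8.96% of all tested genes. Of 16 tested inducing cytokines and their receptors, 1 fell and 0 rose. That gene was Tlr2, a sensor of bacterial lipoproteins, with 254 in K5 and 95.4 in K6 after halofuginone, against 917 in K5 and 573 in K6 controls (log2 change -2.34, SE 0.26, limma adjusted p = 0.039). The cytokine genes Il1a and Il1b were well above background on 0 of the 4 arrays. Tnf read 145 in K5 and 223 in K6 after halofuginone, against 119 in K5 and 167 in K6 controls, with a limma adjusted p of 0.62.

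Of the 17 NF-kappaB subunits, kinases and inhibitors, all tested, 1 rose and 0 fell. Chuk, the kinase subunit IKK-alpha, read 14348 in K5 and 21529 in K6 after halofuginone, against 1399 in K5 and 6586 in K6 controls (log2 change 2.41, SE 0.39, limma adjusted p = 0.048). The median change of this list was -0.15. Nfkbia, the NF-kappaB inhibitor and itself a target, had an estimate of -0.77 with a limma adjusted p of 0.13, and Rela one of 0.18 with 0.71.

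Of 9 interferon factors, 1 fell and 0 rose. Irf1, a transcription factor that binds interferon response elements, read 2404 in K5 and 1096 in K6 after halofuginone, against 7365 in K5 and 9425 in K6 controls (log2 change -2.48, SE 0.36, limma adjusted p = 0.045). Irf1 was thus lower in both lines. Cxcl10, whose promoter held the interferon motif, was higher in K5 and lower in K6, and a link between these genes was not tested. None of 7 tested genes of mRNA decay and chemokine shedding passed. Elavl1, which binds AU-rich elements, had a limma estimate of 1.20 with an adjusted p of 0.069, and Adam10 and Adam17, the proteases that shed Cxcl16 and Cx3cl1, had -0.50 and -0.91 with adjusted p-values of 0.26 and 0.10 in limma.

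Some immune marker genes were lower with halofuginone too. Of 11 on the array 8 were tested, 3 fell (Cd68, Cd14 and Ly6g) and 0 rose, and Lyz2 was well above background on none of the arrays. The summed signal of the 11, not scaled between arrays, was 13161 in K5 and 9897 in K6 after halofuginone, against 22588 in K5 and 29531 in K6 controls. After scaling, the median change of the 8 tested was -1.06 in K5 and -0.92 in K6 on the log2 scale. Cd14, a lipopolysaccharide co-receptor, read 2554 in K5 and 825 in K6 after halofuginone, against 13262 in K5 and 14537 in K6 controls (log2 change -3.38, limma adjusted p = 0.040). Cd68 changed by -1.79 and Ly6g by -2.68 on the log2 scale, with limma adjusted p-values of 0.044 and 0.039. Itgam, or CD11b, was bright on all 4 arrays, with a limma estimate of -0.29 and an adjusted p of 0.47. Ptprc, the pan-leukocyte marker, has 7 probes, of which 4 were well above background on no array and 1 on all 4. The probes for its RefSeq transcript were among the 4. The probe bright on all 4 arrays is for another transcript and is the one in the sum. It read 3308 in K5 and 2303 in K6 after halofuginone, against 1257 in K5 and 2196 in K6 controls. Of the epithelial markers, all 8 tested, Muc1 fell (log2 change -3.40, limma adjusted p = 0.036) and none rose. Their summed signal, not scaled between arrays, was 854779 in K5 and 807661 in K6 after halofuginone, against 634726 in K5 and 625109 in K6 controls. After scaling, the median change of the epithelial markers was -0.24 in K5 and 0.44 in K6 on the log2 scale. None of the 4 tested fibroblast markers passed, while the endothelial gene Kdr rose (log2 change 2.61) and the acinar gene Cela1 fell (-2.53), both with a limma adjusted p of 0.037. The K5 control of Kdr was not well above background, so in K5 Kdr was at least 1.42-fold higher. In K6 it was 5.82-fold higher. The other Kdr probes were well above background on 0 of the 4 arrays. The part of these marker genes in the chemokine values was not tested.

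The 3 tested genes whose pattern over the 4 arrays lay closest to that of Cxcl5 were Fam183b, Aldh1a7, an aldehyde dehydrogenase, and Sult1c2, a sulfotransferase. The distance was taken between levels centred on the mean of each gene, and it was 0.43, 0.57 and 0.64 log2 units, where the median over all tested genes was 5.59. Sult1c2 read -3.33 in K5 and -6.22 in K6 as log2 changes. Fam183b and Aldh1a7 were not well above background on the K6 halofuginone array, so their distances rest on that value as read. Fam183b was -3.73 in K5 and at least 16.1-fold lower in K6, and Aldh1a7 was -4.19 in K5 and at least 35.8-fold lower in K6. With 4 arrays, this likeness is a description.

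The calls on the 4 chemokines lower in both lines lay near the threshold and depended on the fit. Under 11 alternative settings that kept all 4 arrays, none of their estimates changed sign. Several of these settings, such as no block or another filter, leave the estimates themselves unchanged, so the stable sign is no separate support. The number of members past the threshold was between 0 and 4 over these settings, with 4 (Cxcl1, Cxcl5, Ccl2 and Ccl20) after normexp background correction with quantile normalization, or when each gene had to be well above background on all 4 arrays. Without the line as a block, 0 members passed and Cxcl5 had a limma adjusted p of 0.10.

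**Figure D5:**
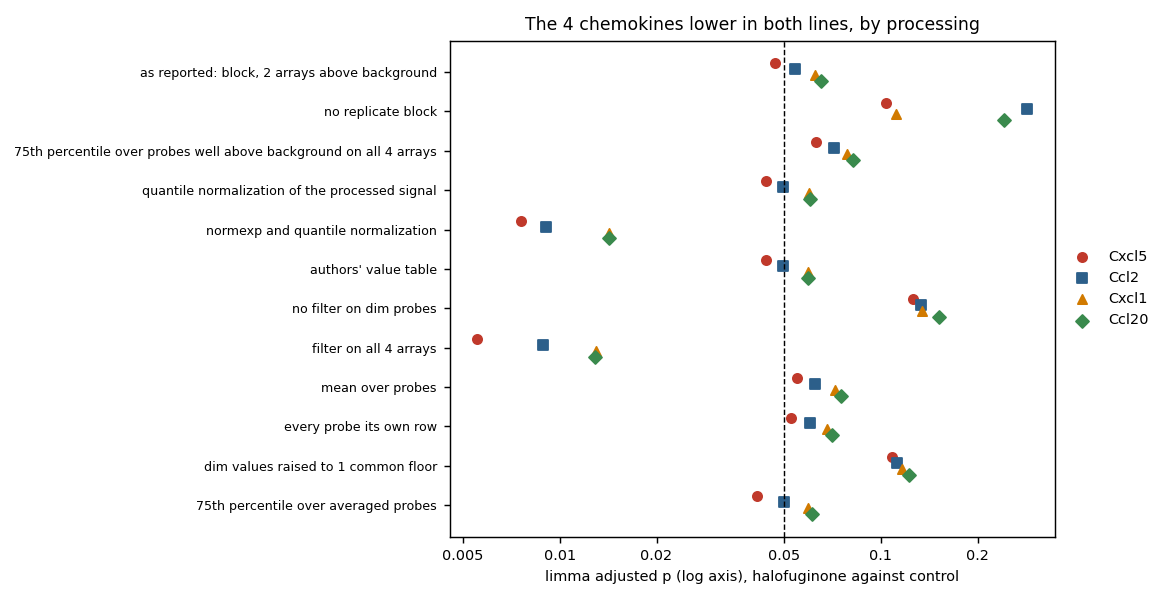
Adjusted p from limma for halofuginone against control (horizontal axis, log scale) for Cxcl5, Ccl2, Cxcl1 and Ccl20 under the reported setting (top row) and 11 alternatives that keep all 4 arrays. The dashed line is the threshold of 0.05, and Cxcl5 runs between 0.006 and 0.126.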

How the data were processed

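Per the labels' protocols, total RNA was labelled with Cy3 for 1-colour arrays. Agilent Feature Extraction 10.7.1.1 gave the spot intensity per the file headers, and the version in the submitters' processing notes is 9.5.1.1. The processed signal the authors deposited is an intensity with background subtracted within the array, a surrogate in place of dim spots and no normalization between arrays. The steps behind the authors' deposited value table, also intensity, are not given in the sources used here.

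Outlier spots were left out (301 of 56605 probes lost). Log2 processed signal minus each array's 75th percentile was tested with limma 3.58.1 in R 4.3.3, with the brightest probe per gene, in genes well above background on at least 2 arrays, and adjusted by Benjamini-Hochberg over 19092 genes. The fit had 1 residual and 2.97 prior degrees of freedom. The number of arrays, all on 1 slide, limits the precision. Replicate numbers 5 and 6 pair the samples, being the names of the cells, and K6 minus K5 correlated across genes between conditions at 0.50. A bound ("at least") sets the bright side against the lowest signal well above background, or the dim probe's own if higher. All 10 chemokines were named, and of the other lists the genes past the threshold and up to 3 with the highest level. Further genes, such as Cxcl9, Pf4, Ccl17, Tnf, Il1a, Il1b, Nfkbia and single markers, were chosen after their values were seen. Members and lists were chosen with earlier results of these data known. Alternatives changed the block, scaling, background correction, filter, probe rule, floor and arrays kept.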

Additional observations from a re-analysis of the deposited data

Results flagged for a closer look

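Cxcl10 (probe A_55_P2016462) took opposite signs in the 2 lines. With halofuginone it was higher in K5, by 1.62 on the log2 scale, and lower in K6, at -0.80. The K6 value less the K5 value was -2.42. This difference was not tested, as there is 1 array for each line and condition.

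Cxcl16 (probe A_52_P99888) also took opposite signs, -1.09 in K5 and 0.27 in K6 on the log2 scale, a difference of 1.37 that was likewise not tested. On the other Cxcl16 probe the values were -1.36 for K5 and -0.10 for K6. The opposite sign therefore rests on 1 of its 2 probes.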

How the results depend on the processing

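Halofuginone changed 1710 genes (740 higher, 970 lower) and K6 against K5 33 in limma as reported, with 1 and 0 chemokines among them. Without the replicate block the counts were 0 genes for halofuginone and 0 for the lines, with 4491 and 798 genes at an unadjusted p under 0.05, and 0 chemokines (2 unadjusted). Scaling over probes well above background on all 4 arrays gave 0, 0 and 0 chemokines (6482 and 2834 genes unadjusted), no filter on dim probes 0, 0 and 0 (15048 and 3655), and 1 common floor 0, 0 and 0 (5887 and 2512). The mean over probes gave 592 and 0 genes and 0 chemokines, and every probe as its own row 1300 and 0 with 0 chemokines. Calls rose with quantile normalization (1719 genes for halofuginone, 149 for the lines, 2 chemokines), the authors' table (1711, 152, 2), normexp with quantile normalization (4204, 423, 4, and Ccl2 as 1 chemokine between the lines), a filter on all 4 arrays (4012, 305, 4, and again 1, Ccl2) and the 75th percentile over averaged probes (2021, 167, 2), the last chosen after seeing the data. The cause of these shifts was not tested. Scaling over common probes moved the median of all tested genes to -0.11 and no filter to -0.34.

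With 1 array left out, and no replicate block, the counts were 0 for both comparisons and for the chemokines in all 4 cases. The estimate for Cxcl5 ranged between -6.67 and -3.63 with 1 array or 1 line left out. Its call was already lost without the block on all 4 arrays, so these fits do not show that it depends on any single array. For Cxcl1, Ccl2 and Ccl20 it ranged between -2.43 and -1.28, -4.12 and -1.01, and -3.19 and -0.95. For halofuginone, signs reversed for Cxcl10 (-0.80 to 1.62 with 1 line or array left out, -0.65 without the K5 halofuginone array), Cxcl12 (-0.34 to 1.64, -0.27 without the K6 control array) and Cxcl16 (-1.38 to 0.56, and -1.09 or 0.27 in 1 line alone). For K6 against K5 they reversed for Cxcl1 (-1.32 to 1.104, 0.53 without the K5 control array, 0.46 in controls alone), Cxcl5 (-4.63 to 2.05, with 0.52 and 0.23 in the same cases), Cxcl10 (-2.13 to 0.28), Cxcl12 (-1.83 to 0.15) and Ccl5 (-1.79 to 0.24, 0.21 in controls alone). The mean over probes reversed Cxcl10 to -0.17 and Cxcl12 to -0.49. Cxcl2, Cxcl12 and Cxcl15 are limited by signal near background.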
